A study of Mus musculus with 6 samples.

Results

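The promoters of Kdm6b and Dpysl2 were followed on promoter arrays hybridised with chromatin immunoprecipitated by antibodies to SMAD1/5, SMAD2 and SMAD4. Every non-control probe that the array annotation assigned to either gene was taken, Kdm6b also under its older name Jmjd3. This gave 101 probes of the 237185 on the second array of each antibody, 84 for Kdm6b and 17 for Dpysl2, and these are 2 of the 17047 genes on both arrays together.

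The chromatin came from R1, embryonic stem cells of the mouse kept without feeder cells, with leukemia inhibitory factor and Knockout serum replacement in the medium. All groups were the same undifferentiated cells with no further treatment and no genetic change named in the labels, and in the labels they differed in the antibody, each raised against the linker region of a recombinant human SMAD. Each antibody had 1 biological replicate, spread over 2 arrays that carry different probes; the immunoprecipitate was labelled with Cy5 and the input, DNA from whole cell extract, with Cy3, with no dye swap. The title, the characteristics and the design text of the SMAD2 samples name SMAD2, while their extraction protocol names the SMAD1/5 antibody. With 1 array per antibody at these genes, no test between antibodies was possible, and an SD below is a spread over probes of 1 array, not an error between replicates. No RNA was measured, so the labelled cell type was not checked against marker genes.

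SMAD proteins carry signals of the TGF-beta family into the nucleus: SMAD1 and SMAD5 are activated by BMP receptors, SMAD2 by Activin, Nodal and TGF-beta receptors, and SMAD4 is the partner both branches share. Kdm6b is a demethylase of the JmjC class that removes methyl groups from lysine 27 of histone H3, a mark that Polycomb complexes place on silent developmental genes. Dpysl2, also called CRMP2, encodes a cytosolic protein that binds tubulin and acts in axon growth and in the response of neurons to Semaphorin 3A.

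Kdm6b was covered from 7919 bp upstream of its start to 15056 bp inside the gene, chromosome 11 from 69480171 to 69503193 in the positions of the files (their genome build: not given in the sources used here). The probes lay in 3 blocks: 39 upstream of 1000 bp before the start, 19 around the start up to 2412 bp inside the gene, and 26 far inside it, from 9992 to 15056 bp. Dpysl2 was covered from 146 bp upstream to 2340 bp inside the gene, chromosome 14 from 61727119 to 61729658. Of its probes 15 lay inside the gene and 2 in a divergent promoter that it shares with LOC432870, a predicted gene on the other strand.

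Values are log2 ratios of immunoprecipitate over input, centred on the median probe of their array, so that 1 is a 2-fold ratio above the typical probe. A window is the mean of the probes within 500 bp of a probe, with at least 3 probes. Its z is the distance from the array's median window in units of the spread of windows below that median. An enriched gene is one with a window of z 4 or more that includes 2 or more probes in the top 5% of the array. That height was a log2 ratio of 4.17 on the SMAD1/5 array, 2.23 on the SMAD2 array and 2.29 on the SMAD4 array, because ratios on the SMAD1/5 array were spread more widely. The SD over all probes was 1.76 with SMAD1/5, against 0.91 with SMAD2 and 0.98 with SMAD4. Nearly every input of Kdm6b was flagged well above background: all 84 with SMAD1/5 and SMAD4, and 82 with SMAD2. Dpysl2 was dimmer, with 13, 16 and 17 of its 17 inputs well above background with SMAD1/5, SMAD2 and SMAD4. The flag did not exclude dim SMAD1/5 inputs at Kdm6b. Uncorrected mean signals were 67.6 and 81.3 fluorescence units at 1970 and 6384 bp upstream, where ratios were high. They were 73.2 and 79.6 at Dpysl2 probes 1922 and 324 bp inside, which failed the flag.

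Neither gene had an enriched window with any antibody. Among all genes measured the percentage called enriched was 0 with SMAD1/5, 0.0658 with SMAD2 and 2.49 with SMAD4. The highest window of Kdm6b had a z of 2.22 with SMAD1/5, 2.17 with SMAD2 and 2.29 with SMAD4. The highest window of Dpysl2 had a z of 1.18 with SMAD1/5, 1.67 with SMAD2 and 3.44 with SMAD4. Kdm6b was thus level across the antibodies on this scale, whereas Dpysl2 was highest with SMAD4.

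The 2 genes ranked differently among all genes. With SMAD1/5 the highest window of Kdm6b lay at the 97.8th percentile of genes and that of Dpysl2 at the 43.6th. With SMAD2 they lay at the 86.9th and 67.8th percentiles. With SMAD4 Kdm6b lay at the 69.5th and Dpysl2 at the 93.3rd. The median highest z of a gene was 1.26, 1.35 and 1.74 with SMAD1/5, SMAD2 and SMAD4. A gene with more probes has more windows to choose from: the 53 genes with about as many probes as Kdm6b had medians of 1.55, 1.81 and 2.66, the last above the SMAD4 value of Kdm6b. The 1409 genes with about as many probes as Dpysl2 had medians of 1.08, 1.15 and 1.26.

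Kdm6b passed a z of 2 with all 3 antibodies, as did 0.765% of genes, but its 3 highest windows lay in different places. The SMAD1/5 window was centred 5922 bp upstream of the start, the SMAD2 window 7785 bp upstream and the SMAD4 window 1586 bp upstream. Single antibodies passed a z of 2 in 5.94%, 18.4% and 40.1% of genes with SMAD1/5, SMAD2 and SMAD4.

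The SMAD1/5 window of Kdm6b spanned chromosome 11 from 69500763 to 69501657 and held 7 probes. From 5540 to 6384 bp upstream their log2 ratios were 1.52, 3.86, 1.67, 1.75, 1.50, 2.35 and 3.27, a mean of 2.27 ± 0.94 (SD over 7 probes). All 7 were above 1. At these same probes the SMAD2 ratios ran from -0.39 to 1.27 with a mean of 0.23 ± 0.53, and the SMAD4 ratios from -1.10 to 0.82 with a mean of -0.03 ± 0.68. The SMAD1/5 ratio was the highest of the 3 at each of the 7 probes.

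Unbroken runs of that length were few on the array. Of the 18033 windows with at least 7 probes, 9 had every probe at a SMAD1/5 ratio of 1 or more (0.0499%). These 9 lay in 8 separate places, 1 of them at Kdm6b and none at Dpysl2. The same rule held for 0.0126% of windows with SMAD2 and 0.139% with SMAD4, none of them the Kdm6b window. The rule of 7 probes was chosen after this window had been seen.

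Both channels moved at that window. The SMAD1/5 immunoprecipitate stood at a log2 signal of 2.48 above its array's median, at the 99.8th percentile of windows. The SMAD2 and SMAD4 immunoprecipitates were also bright there, at 1.66 and 1.75, the 95.1st and 98.7th percentiles. The SMAD1/5 input stood at 0.65, the 62.7th percentile, while the SMAD2 and SMAD4 inputs stood at 1.36 and 1.88, the 91.0th and 97.6th. Against the mean of the other antibodies, the SMAD1/5 immunoprecipitate was higher by 0.78 and its input was lower, with a difference of -0.96. The stretch is thus one where DNA gave a bright signal in 5 of the 6 channels, and the SMAD1/5 input was the exception.

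The window mean hardly depended on the background correction. It was 2.22 from the uncorrected mean signals, 2.26 with normexp background correction and 2.33 in the values the authors deposited. The z did move, to 3.75, 6.10 and 4.19, because the spread of windows on the SMAD1/5 array changed from 1.07 to 0.60, 0.35 and 0.57. With the last 2 of these settings the window passed the call. With normexp 862 of 16732 genes were then called enriched with SMAD1/5, and with the deposited values 28. Measured against the mean input of the 3 arrays in place of its own, the window mean was 1.46 and the z 1.89. Without the highest probe of the gene it was 2.01. The 5 probes of the run other than its 2 highest had a mean of 1.76 ± 0.35 with SMAD1/5, 0.11 ± 0.30 with SMAD2 and 0.12 ± 0.76 with SMAD4.

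Toward the start from the high run, after a probe at 0.47, the SMAD1/5 ratios were low. The lowest SMAD1/5 window, centred 4712 bp upstream, had a mean of -2.69 ± 1.56 over 5 probes and a z of -2.44. A z of -2 or less was met somewhere in 32.2% of genes with SMAD1/5, and no window of either gene was called low (a z of -4 or less, by the mirrored rule) with any antibody. Low calls were made in 2.62%, 0.335% and 0.0478% of genes with SMAD1/5, SMAD2 and SMAD4. The SMAD1/5 input was at 4.16 above its median there, 3.00 above the mean of the other inputs, while its immunoprecipitate was within 0.28 of the others. With normexp the mean of that window was 0.14, with uncorrected signals -1.32 and in the deposited values -1.23. The 4 probes from 4549 to 5103 bp upstream averaged -0.26, -1.70 and -1.81 in the same order. The window mean thus turned positive with normexp only, and those 4 probes stayed negative on average. The mean of the high run stayed positive in each.

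**Figure D1:**
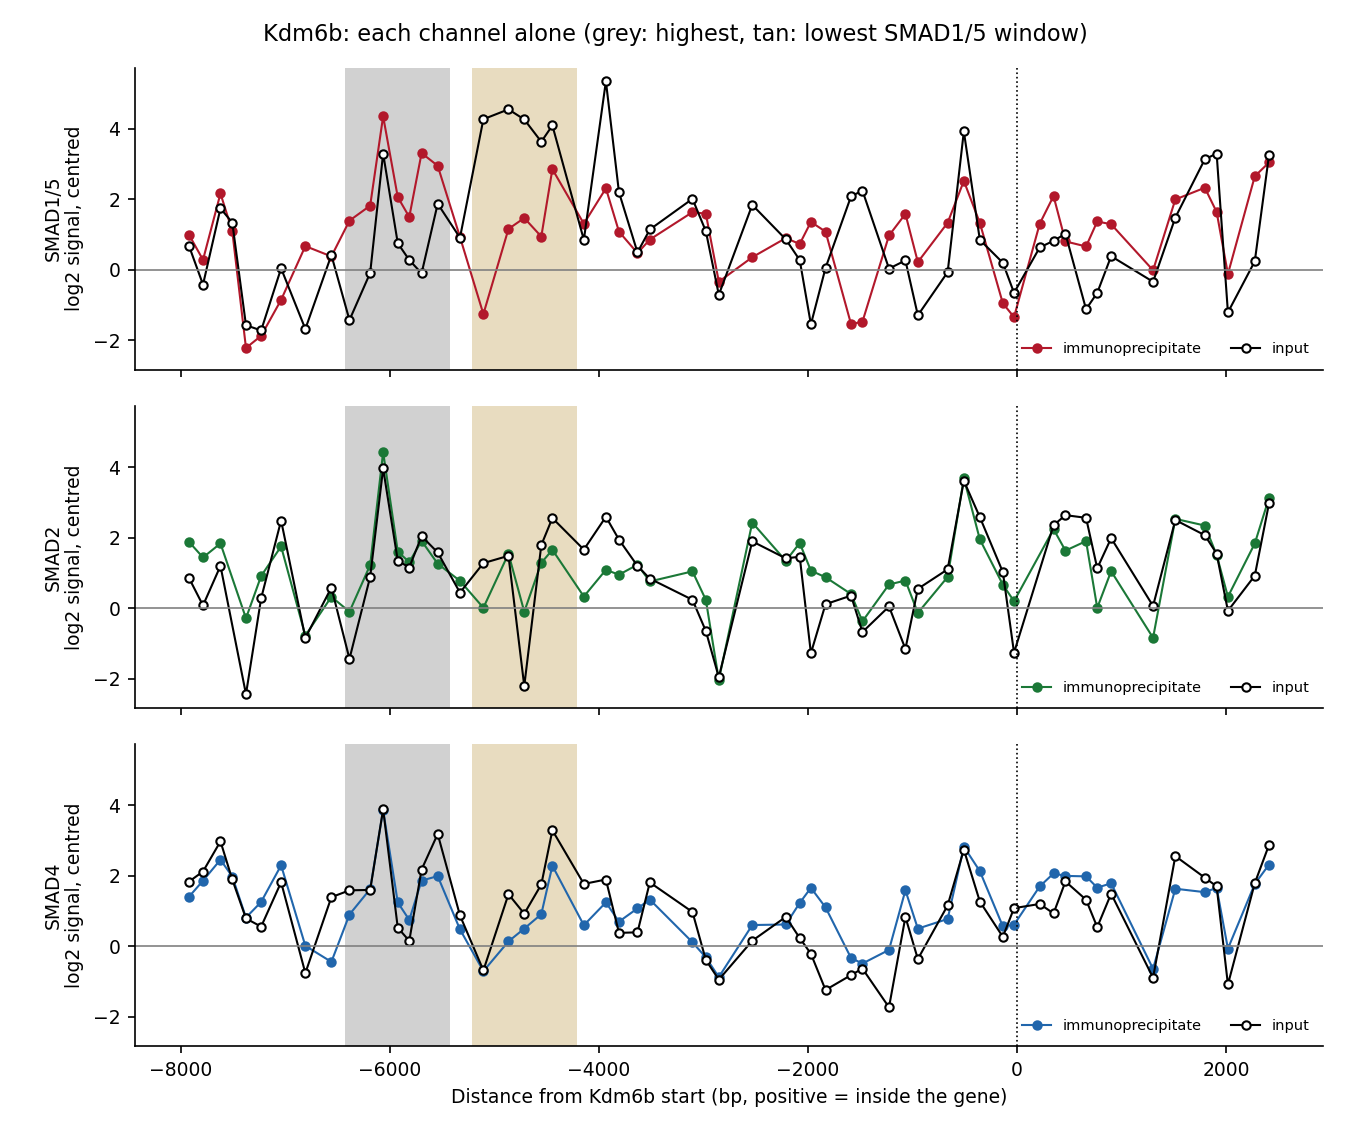
Log2 signal of immunoprecipitate (filled) and input (open), each centred on its array's median (vertical axis), against distance from the Kdm6b start in bp (horizontal axis), for probes up to 2412 bp inside the gene, 1 row per antibody. In the grey band, the highest SMAD1/5 window, the SMAD1/5 immunoprecipitate averages 2.48 over an input of 0.65, and in the tan band, the lowest, its input averages 4.16.

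The SMAD2 window of Kdm6b, at the upstream edge of the covered stretch, had a mean of 1.23 ± 0.64 over 5 probes, of which 2 were above 1. The ratios of SMAD1/5 and SMAD4 there averaged 0.56 ± 0.54 and -0.12 ± 0.27. The SMAD2 immunoprecipitate was 0.13 above the mean of the other antibodies and its input lower, with a difference of -1.22. Its highest probe, 7374 bp upstream at 2.09, had an input that was not well above background, so that ratio, 4.24-fold on the processed signals, is uncertain. The log2 ratio there was 1.54 from uncorrected mean signals and 1.83 with normexp. With only probes well above background the window mean was 0.95 and the z 1.69.

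The SMAD4 window, 1586 bp upstream, had a mean of 1.34 ± 0.85 over 6 probes, of which 4 were above 1. SMAD2 averaged 0.68 ± 0.82 there and SMAD1/5 0.11 ± 2.72, the last because 2 neighbouring probes, 1586 and 1477 bp upstream, read -3.18 and -3.28. The SMAD4 immunoprecipitate was 0.05 above the mean of the others and the input lower, with a difference of -0.99. Measured against the mean input of the 3 arrays, this window fell to 0.77 and the highest SMAD4 window of Kdm6b moved to 7374 bp upstream. The SMAD2 window fell to 0.48 in the same way, and its highest window moved to 2210 bp upstream. The highest windows of SMAD2 and SMAD4 thus moved with that input, whereas the SMAD1/5 window stayed in place at a lower mean of 1.46. Window size alone also moved them. With 250 and 1000 bp to either side the SMAD2 window lay 7618 and 7919 bp upstream, and the SMAD4 window 1830 bp upstream with both. With windows of 1000 bp to either side, the highest SMAD1/5 window moved to 9992 bp inside the gene, at a z of 2.31 against 1.75 at the reported place.

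One probe of the SMAD4 window was high with all 3 antibodies. The probe 1970 bp upstream had ratios of 3.35 with SMAD1/5, 2.27 with SMAD2 and 1.97 with SMAD4, the 99.3rd, 99.3rd and 94.8th percentiles of probes. Its neighbour 1830 bp upstream had 1.47, 0.70 and 2.44. At the first of these probes the immunoprecipitates stood at 1.36, 1.06 and 1.66 and the inputs at -1.55, -1.28 and -0.21. Its SMAD1/5 input was flagged well above background, but the uncorrected mean signal was only 67.6 in fluorescence units. The SMAD1/5 input 1922 bp inside Dpysl2, not well above background, had 73.2. The log2 ratio of 3.35 is therefore uncertain, and it was 1.58 from uncorrected mean signals. Runs of 2 neighbouring probes with both at 1 or more with SMAD1/5 and SMAD4 made up 0.727% of such runs on the array. A second probe, 13187 bp inside the gene, had 2.28, 1.43 and 2.18. These were 2 of the 82 Kdm6b probes measured with all antibodies (2.44%), against 1.06% of all array probes. With normexp their SMAD1/5 ratios were 0.59 and 0.71, so neither passed 1 with all 3, whereas both did with uncorrected signals and with the deposited values. No Kdm6b probe was at -1 or less with all 3, against 0.483%.

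Averaged over the whole of Kdm6b the ratios were near the array median. The mean was 0.27 ± 1.81 over 84 probes with SMAD1/5, 0.02 ± 0.81 over 82 with SMAD2 and 0.05 ± 0.87 over 84 with SMAD4. In order, SMAD1/5 came first, SMAD4 second and SMAD2 last, and no neighbours in that order differed beyond the spread over probes. The SMAD1/5 minus SMAD4 difference was 0.22 ± 1.72 and the SMAD2 minus SMAD4 difference -0.02 ± 1.01. The means lay at the 84.1st, 51.1st and 43.4th percentiles of genes with SMAD1/5, SMAD2 and SMAD4. Both channels, in contrast, were bright: immunoprecipitates averaged 0.94, 1.15 and 1.07 and inputs 1.11, 1.06 and 1.13 above their array medians.

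The share of Kdm6b probes past a log2 ratio of 1 departed from that of the array mostly with SMAD1/5. With SMAD1/5 30 of 84 Kdm6b probes (35.7%) were at 1 or more, against 25.3% of all probes, and 17 (20.2%) at -1 or less, against 29.1%. With SMAD2 9 of 82 were at 1 or more and 8 at -1 or less, that is 11.0% and 9.76%, against 12.6% and 13.3%. With SMAD4 9 and 7 of 84 were so, 10.7% and 8.33%, against 16.5% and 9.95%. SMAD1/5 alone had a larger share of high probes than its array.

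Of the 3 blocks, the one around the start had the widest range of mean ratios between antibodies. Over the 19 probes from 947 bp upstream to 2412 bp inside, the mean ratio was 0.88 ± 1.19 with SMAD1/5, -0.26 ± 0.69 over 18 probes with SMAD2 and 0.33 ± 0.61 with SMAD4. The mean over a stretch from 1000 bp upstream to 2500 bp inside was computed for all genes with at least 10 probes in it. Among 14422 such genes with SMAD1/5 the median was -0.22, and Kdm6b lay at the 97.2nd percentile. With SMAD2 and SMAD4 Kdm6b lay at the 19.1st and 76.4th percentiles. SMAD1/5 exceeded SMAD2 at 13 of 18 probes, by 1.12 ± 1.53 on average, within the spread over probes. In the channels, the SMAD1/5 immunoprecipitate was below that of SMAD2, with a difference of -0.22, and its input further below, with -0.83.

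The contrast was sharpest at 5 probes from 351 to 902 bp inside the gene, picked after their values were seen. They averaged 1.60 ± 0.88 with SMAD1/5, -0.84 ± 0.40 with SMAD2 and 0.77 ± 0.45 with SMAD4. The SMAD2 ratio was the lowest of the 3 at each of the 5. The immunoprecipitates stood at 1.24, 1.36 and 1.90 and the inputs at 0.09, 2.13 and 1.23, so the inputs were further apart than the immunoprecipitates. At the start itself, 27 bp upstream, the order turned: SMAD2 read 1.39, SMAD1/5 -0.24 and SMAD4 -0.37.

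Upstream of 1000 bp the means were 0.27 ± 1.96, 0.23 ± 0.93 and 0.11 ± 0.87, and far inside the gene -0.19 ± 1.86, -0.11 ± 0.59 and -0.26 ± 0.95, with SMAD1/5, SMAD2 and SMAD4. These lay well within their spread. The lowest probe of the gene, at 14271 bp inside, read -5.52 with SMAD1/5, -0.14 with SMAD2 and -1.51 with SMAD4. It and its neighbour at 14387 bp were dim in every immunoprecipitate, with means of -1.55, -2.11 and -2.63 relative to the array medians, and bright in the SMAD1/5 input alone, at 3.21.

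Probe by probe, the immunoprecipitates of Kdm6b resembled one another more than the ratios did. Over 82 to 84 probes the correlation between antibodies was 0.67, 0.63 and 0.82 for the immunoprecipitates, 0.42, 0.33 and 0.66 for the inputs and 0.20, 0.34 and 0.28 for the ratios, in the order SMAD1/5 with SMAD2, SMAD1/5 with SMAD4 and SMAD2 with SMAD4. Over all probes of the array the immunoprecipitates correlated at 0.60, 0.61 and 0.80, the inputs at 0.51, 0.42 and 0.54 and the ratios at 0.05, 0.03 and 0.05. That the immunoprecipitates resembled one another more than the ratios did thus held for the whole array. The same probes were on all 3 arrays, and the ratio of an array shares its values with both of its channels. Within an antibody the ratio followed the input (-0.73, -0.52 and -0.47 for SMAD1/5, SMAD2 and SMAD4) more than the immunoprecipitate (0.36, 0.04 and 0.23). Over all probes of the array the correlation with the input was -0.60, -0.41 and -0.52.

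At Dpysl2 the mean ratio over 17 probes was 0.50 ± 1.82 with SMAD1/5, -0.25 ± 1.17 with SMAD2 and 0.81 ± 1.26 with SMAD4. SMAD4 was thus first, SMAD1/5 second and SMAD2 last, with differences of -0.31 ± 1.35 for SMAD1/5 minus SMAD4 and 0.75 ± 2.11 for SMAD1/5 minus SMAD2, both within the spread over probes. The means lay at the 93.4th, 19.7th and 98.5th percentiles of genes with SMAD1/5, SMAD2 and SMAD4. At 1 or more were 6, 4 and 7 probes, and at -1 or less 3, 6 and 2. The high shares were 35.3%, 23.5% and 41.2%, against 25.3%, 12.6% and 16.5% of array probes, and the low shares 17.6%, 35.3% and 11.8%, against 29.1%, 13.3% and 9.95%.

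SMAD2 and SMAD4 differed at Dpysl2 by -1.06 ± 1.43, and SMAD2 was the higher at 4 of 17 probes. Their inputs differed by 1.13 ± 0.99 and their immunoprecipitates by 0.25 ± 0.89. Relative to its array's median the SMAD4 input at Dpysl2 averaged -0.93, whereas the SMAD2 input averaged 0.20. Measured against the mean input of the 3 arrays, the Dpysl2 mean was 0.22 with SMAD2 and 0.24 with SMAD4. With that common input the 2 means nearly coincided. They could then differ only through the immunoprecipitates and the centring on each array's median, so this adds nothing to the channel values. The SMAD4 arrays were read with another version of the scanner software and another protocol than the other arrays, so antibody and extraction cannot be told apart there.

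The highest SMAD4 window of Dpysl2 lay at the inner edge of the covered stretch, chromosome 14 from 61727119 to 61727596, with 3 probes. At 2340, 2184 and 1922 bp inside the gene they read 2.33, 0.13 and 3.48 with SMAD4, a mean of 1.98 ± 1.70. With SMAD1/5 they read -0.78, 0.22 and 2.32, and with SMAD2 -0.70, 1.13 and 1.96. The probe at 1922 bp was high with all antibodies, and the probe at 2340 bp with SMAD4 alone.

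The SMAD4 immunoprecipitate at this window stood at -0.84 relative to its array's median, the 20.8th percentile of windows, and 0.13 above the mean of the other antibodies. The SMAD4 input stood at -2.72, the 2.74th percentile, and differed from the other inputs by -1.24. The window mean was 0.77 from uncorrected mean signals, 0.88 with normexp and 1.21 in the deposited values. Without the highest probe the highest SMAD4 window had a z of 2.12, and with the mean input one of 1.93. At the processed signals of that probe, 750 for the immunoprecipitate and 71.3 for the input in fluorescence units, the ratio rested on a dim input.

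Next to it, the probe at 1778 bp read 1.27 with SMAD1/5, 1.40 with SMAD2 and 1.29 with SMAD4. With the probe at 1922 bp it formed a run of 2 neighbouring probes at 1 or more with all 3 antibodies, as did 0.0565% of such runs on the array. These were 2 of 17 Dpysl2 probes past 1 with every antibody (11.8%), against 1.06% of array probes, and both lay inside the gene. The input at 1922 bp was not well above background with SMAD1/5 and SMAD2, so those log2 ratios, 2.32 and 1.96 on the processed signals, are uncertain. With SMAD1/5 the log2 ratio at 1922 bp was 0.61 from uncorrected mean signals, 0.05 with normexp and 1.07 in the deposited values, and the run passed 1 with all 3 antibodies in none of these. Over the run the immunoprecipitates averaged 0.36, -0.22 and -0.07 and the inputs -0.99, -1.97 and -2.35, so the inputs were low with each antibody and the immunoprecipitates were near their medians.

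Closer to the start, 3 probes separated SMAD2 from the others. At 324, 441 and 589 bp inside the gene SMAD1/5 read 4.68, 3.26 and 2.26, and SMAD4 2.02, 2.15 and 1.61. SMAD2 read -1.67, -1.13 and -0.07 at the same probes. All 3 were thus high with SMAD1/5 and SMAD4 and below 0 with SMAD2. Runs of 3 neighbouring probes with all at 1 or more with both SMAD1/5 and SMAD4 made up 0.115% of the 147302 runs on the array, against 3.50% with SMAD1/5 and 2.56% with SMAD4 regardless of the other. The run was singled out after its values were seen.

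**Figure D2:**
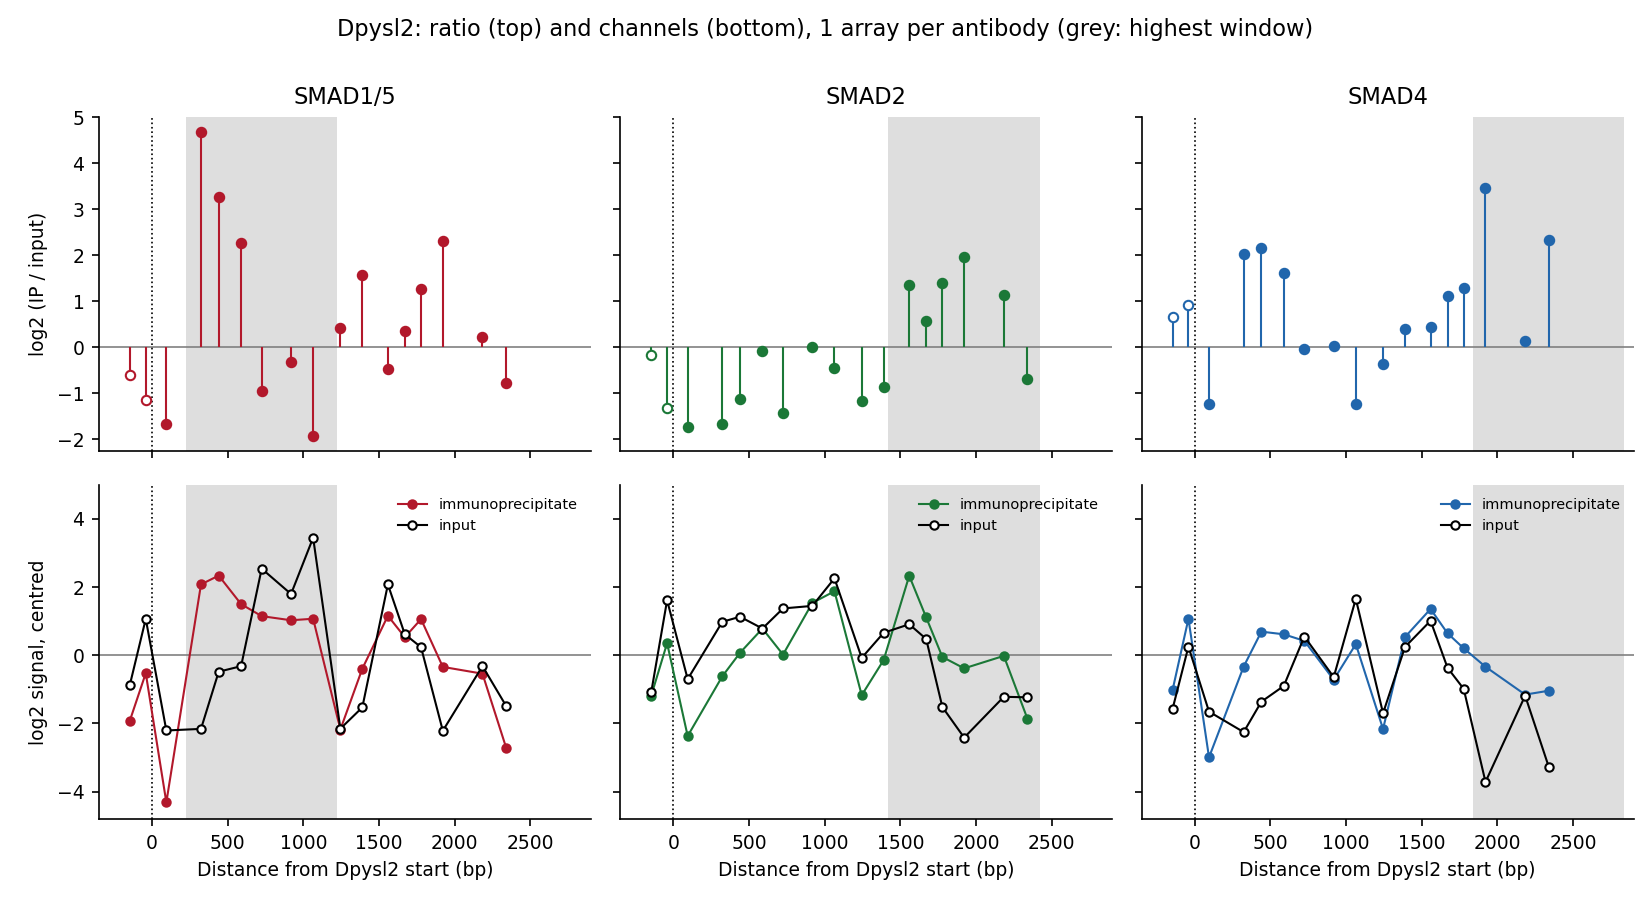
Log2 ratio (top row) and centred log2 signal of each channel (bottom row, immunoprecipitate filled, input open) at the 17 probes of Dpysl2 against distance from its start in bp, 1 column per antibody; open circles in the top row are the 2 probes shared with LOC432870 and grey bands the highest window. SMAD1/5 and SMAD4 both rise at 324 to 589 bp inside the gene, where SMAD2 stays below 0, and all 3 are high at 1778 and 1922 bp.

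In that run the SMAD1/5 immunoprecipitate was bright, with a mean of 1.97, whereas those of SMAD2 and SMAD4 were at 0.08 and 0.33. The inputs averaged -0.99 with SMAD1/5, 0.96 with SMAD2 and -1.50 with SMAD4. The SMAD1/5 signal there was thus raised in the immunoprecipitate as well as lowered in the input, while with SMAD4 the input carried most of it. The input at 324 bp was not well above background with SMAD1/5, so that ratio, 25.6-fold on the processed signals, is uncertain. The log2 ratio there was 2.51 from uncorrected mean signals, 1.88 with normexp and 2.30 in the deposited values. The mean ratio of the run was 2.28, -0.73 and 1.32 from uncorrected mean signals, 1.79, -0.79 and 1.44 with normexp, and 2.02, -0.78 and 1.59 in the deposited values, for SMAD1/5, SMAD2 and SMAD4. The direction held with each antibody in all of them, but each sets the immunoprecipitate against the input of its own array. The run was not measured against the mean input of the 3 arrays.

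The run sits in the highest SMAD1/5 window of Dpysl2, 725 bp inside, whose mean was only 1.17 ± 2.62 because the 3 probes beyond it, at 725, 919 and 1065 bp, read -0.95, -0.33 and -1.93. With windows of 250 bp to either side and at least 2 probes, the highest SMAD1/5 window moved to 441 bp inside with a mean of 3.40 and a z of 2.54. The highest SMAD4 window then lay at 1922 bp with a z of 3.50. With SMAD2 the stretch around 324 bp was the lowest window of the gene, -1.07 ± 0.68 over 7 probes with a z of -2.02, a value that 30% of genes reached or passed.

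At the start of Dpysl2 the ratios were low with SMAD1/5 and SMAD2. The probe 95 bp inside the gene read -1.66 with SMAD1/5, -1.74 with SMAD2 and -1.24 with SMAD4, with immunoprecipitates at -4.31, -2.37 and -2.99. The SMAD1/5 input and the SMAD2 immunoprecipitate were not well above background there, and the SMAD1/5 ratio was -0.35 with normexp. The 2 probes shared with LOC432870 averaged -0.88 ± 0.38 with SMAD1/5, -0.75 ± 0.82 with SMAD2 and 0.78 ± 0.19 with SMAD4. SMAD4 was thus the higher at both. The other 26 probes of LOC432870 averaged -0.16 ± 2.10, -0.04 ± 1.06 and 0.36 ± 0.85, and the highest window of that gene had a z of 1.18, 1.47 and 2.40. Leaving out the shared probes changed no highest window of Dpysl2.

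Taking the stretch from 1000 bp upstream to 2500 bp inside, which holds all 17 Dpysl2 probes, Dpysl2 lay at the 89.1st percentile of genes with SMAD1/5, the 19.4th with SMAD2 and the 97.1st with SMAD4. Kdm6b lay at the 97.2nd, 19.1st and 76.4th. Against its own input, SMAD2 had a negative mean and the lowest place among the antibodies at both starts. Against the mean input of the 3 arrays the SMAD2 mean over the 17 Dpysl2 probes was 0.22.

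**Figure D3:**
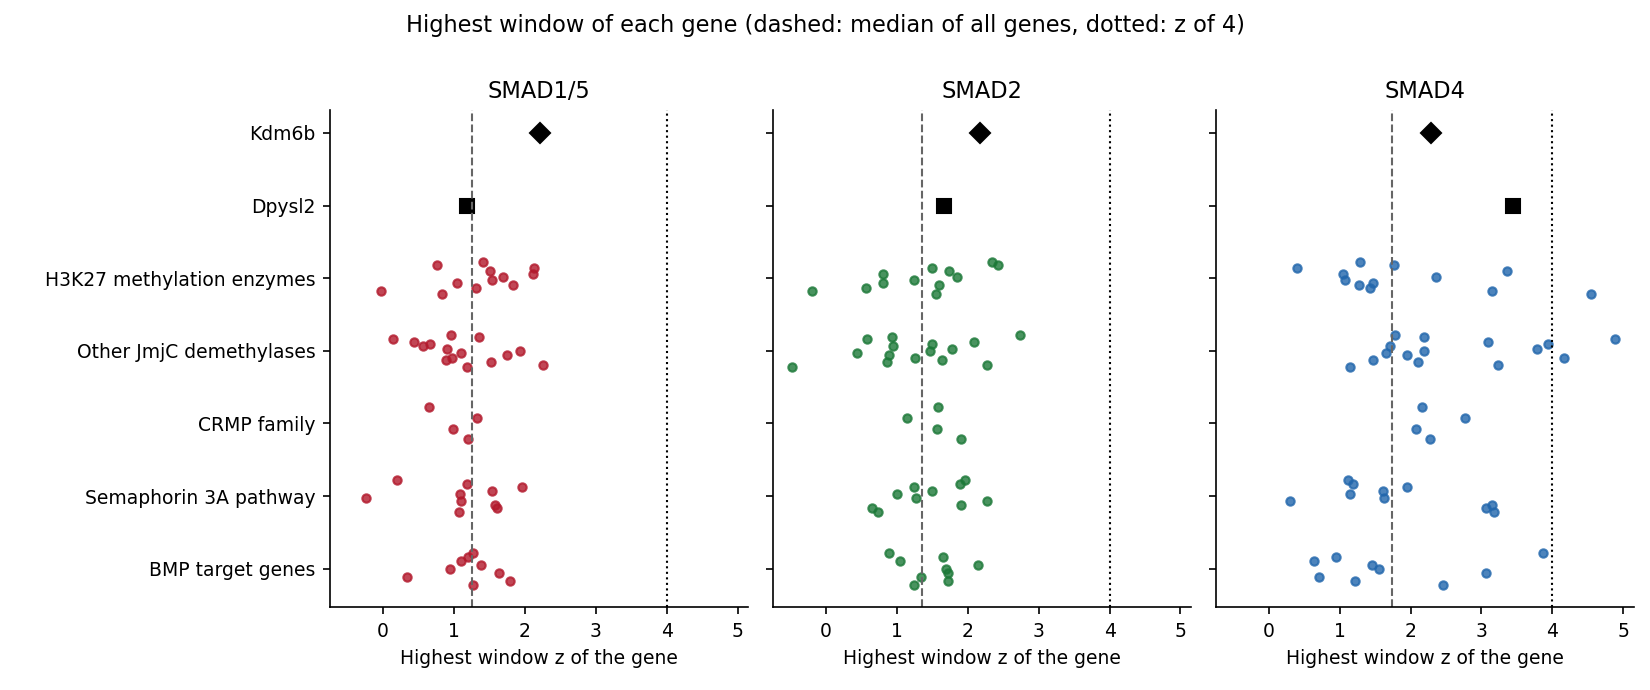
Highest window z (horizontal axis) of Kdm6b, Dpysl2 and each gene of 5 related lists (vertical axis), 1 panel per antibody; the dashed line is the median of all genes and the dotted line a z of 4. Kdm6b, which has more probes than any listed gene, lies at 2.22, 2.17 and 2.29, above the BMP target genes with SMAD1/5. Dpysl2 reaches 3.44 with SMAD4, above the other CRMP genes.

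Beside the genes of related function, Kdm6b lay high with SMAD1/5. Of 13 other enzymes and partners that write or erase the same histone mark 12 were measured. Their median highest z was 1.46, 1.53 and 1.45 with SMAD1/5, SMAD2 and SMAD4, and their highest was 2.13, 2.42 and 4.55. With SMAD1/5 Mtf2 and Rbbp4, subunits found with Polycomb repressive complex, were the highest at 2.13 and 2.12. With SMAD4 Kdm6a, the X-linked demethylase closest to Kdm6b, was the one gene of 12 called enriched, at 4.55, against 2.49% of all genes, with 0.84 and 1.56 for SMAD1/5 and SMAD2. Its Y-linked relative Uty had 3.15 with SMAD4 and -0.03 and -0.19 with the others. Rbbp7 had 3.36 with SMAD4. Ezh2, the methyltransferase itself, had 1.31, 0.56 and 1.43, Eed 1.83, 1.60 and 1.27, Suz12 1.05, 0.81 and 1.47, and Jarid2 1.54, 1.24 and 1.08. Aebp2, Phf1 and Phf19 had SMAD2 values of 1.85, 2.42 and 2.34. Phf19 was the one gene of 12 with a low window, at a z of -5.20 with SMAD1/5, against 2.62% of all genes. Kdm6b was above all 12 with SMAD1/5, above 10 of them with SMAD2 and above 8 with SMAD4. Its 84 probes gave it more windows to choose from than any of the 12, of which Ezh2 had the most probes, 39.

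Of 18 other JmjC demethylases 15 were measured, and their median highest z was 0.98, 1.26 and 2.18. With SMAD1/5 Kdm2b, Kdm5b and Kdm4c came first at 2.25, 1.94 and 1.75. With SMAD2 Jmjd6, Kdm2b and Phf2 came first at 2.74, 2.28 and 2.09. With SMAD4 Phf8 at 4.88 and Kdm4b at 4.16 were called enriched, 2 of 15 against 2.49% of all genes, followed by Kdm7a at 3.94. Kdm2b, covered by 79 probes, was close to Kdm6b with SMAD1/5 and SMAD2 and higher with SMAD4, at 3.23.

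With SMAD4 the highest z of Dpysl2, 3.44, was above those of its 4 family members, a difference that could not be tested. It was 2.12 without the highest probe and 1.93 with the mean input. Crmp1, Dpysl3, Dpysl4 and Dpysl5, which encode the other collapsin response mediator proteins, had SMAD4 values of 2.28, 2.08, 2.77 and 2.15. None was enriched, and all 4 passed a z of 2, as did 40.1% of genes. With SMAD1/5 they had 1.19, 0.99, 1.32 and 0.64 and with SMAD2 1.90, 1.56, 1.14 and 1.58, around the Dpysl2 values. With SMAD1/5 Dpysl3 and Dpysl5 had a called low window, with a lowest z of -4.13 and -4.01, as did 2.62% of genes. Of 11 genes of the Semaphorin 3A pathway 10 were measured, none was enriched, and Sema3a had a low window with SMAD1/5 at a z of -4.14. Sema3a, the ligand, its coreceptor Nrp1 and the receptor Plxna1 were the 3 highest with SMAD4, at 3.18, 3.06 and 3.15. Cdk5r1, the activator of the kinase Cdk5 that phosphorylates Dpysl2, was the highest with SMAD1/5 at 1.96, followed by Nrp1 and Plxna1 at 1.60 and 1.58. With SMAD2 Plxna2, Fes and Plxna1 were the highest at 2.27, 1.96 and 1.91.

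The 9 BMP target genes, known for BMP response, had a median highest z of 1.27 with SMAD1/5, against 1.26 for all genes. With SMAD1/5 none of them passed a z of 2, as 5.94% of genes did. None of the 9 was enriched with any antibody, against 0, 0.0658% and 2.49% of all genes with SMAD1/5, SMAD2 and SMAD4. With SMAD1/5 the highest z was 1.80 at Id2, followed by 1.64 at Id4, 1.38 at Smad7, 1.27 at Id1 and Msx2, 1.20 at Msx1, 1.10 at Bambi, 0.94 at Smad6 and 0.34 at Id3. Kdm6b lay above all 9 and Dpysl2 above 3, but Kdm6b had 84 probes and none of the 9 had more than 47. Bambi and Msx2 had a called low window with SMAD1/5, with a lowest z of -4.36 and -4.18, as did 2.62% of all genes. With SMAD4 the 9 ran from 0.64 at Bambi to 3.87 at Msx2, and with SMAD2 from 0.89 at Msx2 to 2.15 at Smad7.

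Likeness was measured as the Euclidean distance in highest z over the 3 antibodies, among 8318 genes of the same array. The genes most like Kdm6b were Ltbp2 at a distance of 0.171, Slc24a1 at 0.175 and Hyou1 at 0.185. The genes most like Dpysl2 were Cacna1f at 0.068, Fam204a at 0.070 and Ndufs8 at 0.081. Kdm6b and Dpysl2 themselves were 1.63 apart.

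**Figure D4:**
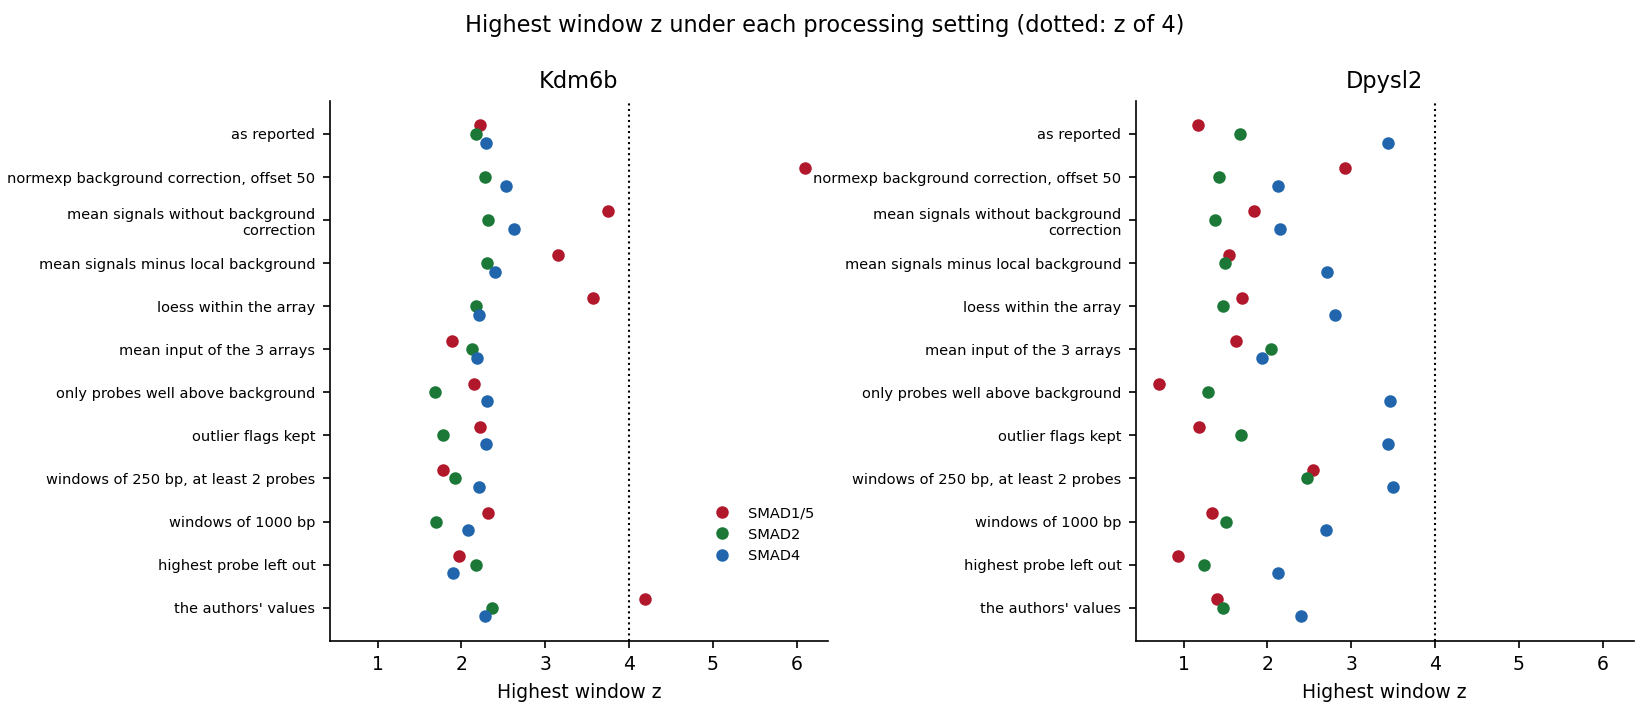
Highest window z of Kdm6b (left) and Dpysl2 (right) on the horizontal axis under the reported and 11 other processing settings on the vertical axis, 1 colour per antibody; the dotted line is a z of 4. Only Kdm6b with SMAD1/5 passes the line, at 6.10 with normexp and 4.19 with the deposited values, and Dpysl2 with SMAD4 ranges from 1.93 to 3.50.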

How the data were processed

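Scanner files of 6 two-colour arrays held processed and mean intensity values per spot, and the processed intensity was, per the file headers, background-subtracted, spatially detrended and dye-normalised by Agilent Feature Extraction 9.1.3.1 (SMAD1/5, SMAD2; CGH protocol) or 9.5.3.1 (SMAD4; ChIP protocol). The authors' deposited value tables held log2 ratios; limma is named in the submitters' processing notes, without version or steps. They correlated with the scanner ratios at 0.74 to 0.95. Gene names came from the annotation column of the files, updated through the RefSeq gene table.

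Control and outlier-flagged spots were left out, the log2 ratio of the processed red and green signals had the array's median subtracted, and windows were scored as described above (Python 3.11.15, numpy 2.4.6, pandas 2.3.3). Normexp (offset 50) and loess were run with limma 3.58.1 in R 4.3.3. The window score was tested on simulated data. There is no replicate, so no p-value was computed; the number of arrays limits precision. Alternatives were 11 settings, plus restricted sets of probes added after seeing the data. The genes, lists and regions were chosen with earlier results of these data known. Genes named were the 2 members, genes sharing a probe, array neighbours, list members (the highest 3 per antibody for the JmjC and Semaphorin lists) and the 3 genes most alike.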

Additional observations from a re-analysis of the deposited data

How the results depend on the processing

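Of 132 recomputed values for the highest window and the mean ratio of both genes, 120 were counted as unchanged. For a highest window this meant only the same side of the call, so a window that fell in z or moved elsewhere in the gene counted as unchanged. The restricted probe sets left every highest window as reported. For a mean it meant a move of less than the standard error over probes. The highest SMAD1/5 window of Kdm6b passed the call with normexp correction (z of 6.10) and with the authors' values (z of 4.19), and stayed at 1.78 to 3.75 elsewhere. The mean SMAD1/5 ratio of Kdm6b moved from 0.27 to 0.71 with normexp, 0.48 with uncorrected mean signals and 0.47 with only the probes from 8000 bp upstream to 2500 bp inside, a set added after seeing the data. Its mean SMAD4 ratio moved from 0.05 to 0.14 with normexp, 0.18 with loess, 0.16 with the authors' values and 0.19 with those probes. The mean SMAD4 ratio of Dpysl2 moved from 0.81 to 0.48 with uncorrected signals and 0.24 with the mean input. The mean SMAD2 ratio of Dpysl2 changed sign with the mean input, from -0.25 to 0.22. The cause was not tested, apart from the narrower spread of SMAD1/5 windows given above. The highest z ranged from 0.70 to 2.92 for Dpysl2 with SMAD1/5, from 1.24 to 2.47 with SMAD2 and from 1.93 to 3.50 with SMAD4. No paired analysis was possible because each antibody has 1 biological replicate, and the numbers in the labels name arrays that carry different probes. Dim inputs limit Dpysl2 most.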

Other observations

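Beyond the far end of Kdm6b, 81 bp from its last probe, lie the 9 probes of Tmem88, which encodes a membrane protein known to dampen Wnt signalling. Its mean ratio was 0.04 with SMAD1/5, 0.27 with SMAD2 and -0.79 with SMAD4, and its highest SMAD4 window had a z of -0.96. Naa38, a subunit of an N-terminal acetyltransferase, came next with 13 probes and a highest z of 2.18, 1.73 and -0.37. Both were thus low with SMAD4, as was the end of Kdm6b nearest to them, where the lowest SMAD4 window averaged -1.17 ± 0.85 over 6 probes, among them the nearest Tmem88 probe. On the other side Efnb3, an ephrin ligand 136229 bp away on the array, had a highest z of 1.63, 1.02 and 2.19.

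Among the neighbours of Dpysl2 on the array, Stmn4, a stathmin that like Dpysl2 binds tubulin in neurons, was enriched with SMAD4, at a z of 4.42, against 1.01 with SMAD1/5 and 1.28 with SMAD2. Adra1a, an adrenergic receptor between Stmn4 and Dpysl2, had 0.88, 2.68 and 2.75. On the far side, Pnma2 had 0.62, 0.91 and 1.18 and Bnip3l, a mitophagy receptor, 1.30, 0.74 and 0.30, so the SMAD4 values differed among the neighbours.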
